A study of Homo sapiens with 12 samples.

Results

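The 10 genes described here encode matrix glycoproteins and mesenchymal markers. FN1, TNC, SPARC and EFEMP1 are secreted into the extracellular matrix, VIM, CAV1 and CDH2 shape the cytoskeleton and the cell membrane, and SNAI2, ZEB1 and TWIST1 are transcription factors. They were chosen by symbol among the 57167 genes of the DU145 count table and by the same Ensembl identifier among the 61860 genes of the C4-2 table, and all 10 were found in both. Their response to palbociclib was measured in human prostate cancer cell lines by RNA sequencing, as read counts per gene.

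By their labels, the 4 groups were C4-2 cells with palbociclib, C4-2 cells with its solvent dimethyl sulfoxide (DMSO), DU145 cells with palbociclib and DU145 cells with DMSO. All cells shared RPMI-1640 medium containing 10% fetal bovine serum, and no allele or construct is named for any sample. Palbociclib inhibits the kinases CDK4 and CDK6, and the sources used here give neither its dose nor its duration. C4-2 descends from the androgen-sensitive LNCaP line, grows without androgen and carries RB1, whereas DU145 came from a brain metastasis and has no working RB1. The series asked how CDK4/6 acts on STING signalling with and without RB1, and the genes here lie outside that question. The labels give 12 libraries, 3 per group, but every count of C4-2 DMSO replicate 3 was 0, which left 11 libraries and a C4-2 comparison of 3 palbociclib against 2 DMSO libraries. No label says that the libraries of a group are separate cultures. The p-values therefore reflect the spread between libraries, which may be technical.

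Fibronectin and the other matrix glycoproteins form the scaffold that cells bind through integrins, and enzymes such as lysyl oxidases and matrix metalloproteinases crosslink or cleave it. In the epithelial-mesenchymal transition, factors of the SNAI, ZEB and TWIST families repress epithelial genes such as the E-cadherin gene CDH1, while N-cadherin, vimentin and fibronectin increase. Carcinoma lines hold different mixtures of these epithelial and mesenchymal features.

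The libraries labelled C4-2 held 2608851 to 3489659 counts each, and those labelled DU145 held 16108999 to 16674393. Taking 3 counts as the limit, a count of 0 in 1 library allows up to 0.86 to 1.15 CPM (counts scaled to a common library total) in the C4-2 table and 0.18 to 0.186 CPM in the DU145 table, which covers counting error only. The libraries labelled C4-2 lacked luminal transcripts that C4-2 cells are known for, so the label is in doubt and they are called by it only as a name. The luminal prostate genes KLK3, KLK2, ACP3 and FOLH1 had 0 counts in all 5 of them, 7 of the 11 luminal markers had counts, and the summed level was 57.1 to 59.5 CPM with palbociclib and 56.0 to 58.2 CPM with DMSO. Fibroblast markers summed to 2777 to 2817 CPM with palbociclib and 2771 to 2853 CPM with DMSO in those libraries. Nearly all of it was COL6A3 and COL1A1, at means of 2574 and 220 CPM over the 5 libraries. LUM came next at only 2.69 CPM, the rest of the 10 markers were lower still, and FAP was at 0. Luminal markers in the libraries labelled DU145 summed to 22.8 to 23.6 CPM with palbociclib and 32.9 to 39.6 CPM with DMSO, with 6 of 11 above 0 with palbociclib and 7 with DMSO. Leukocyte markers there summed to 7.40 to 8.15 CPM with palbociclib and 2.68 to 3.90 CPM with DMSO, with 3 of 8 above 0 with palbociclib and 4 with DMSO, and with PTPRC at 0 in all 6 libraries. CD14, with 200 counts over the 6 libraries, had a log2 fold change of 3.49. Endothelial markers summed to 4.80 to 5.64 CPM with palbociclib and 0.867 to 1.89 CPM with DMSO, with 7 of 7 above 0 with palbociclib and 5 with DMSO. Most of these counts were of CLDN5, with 187 over the 6 libraries and a log2 fold change of 3.58. KDR and TIE1, at 0 with DMSO, had only 4 counts each over the 6 libraries. Fibroblast markers there summed to 54.6 to 64.1 CPM with palbociclib and 57.4 to 65.7 CPM with DMSO. In the libraries labelled C4-2, leukocyte markers summed to 1.48 to 3.07 CPM with palbociclib and 2.29 to 2.65 CPM with DMSO, and endothelial markers to 2.42 to 4.98 CPM with palbociclib and 5.44 to 6.30 CPM with DMSO. The part of these shifts in the results was not tested. Pairs within a group of the libraries labelled C4-2 had a chi-square per degree of freedom of 1.14 to 1.18, close to the 1 of counting error alone. Libraries numbered 3 of both DU145 groups stood apart from the others, with a chi-square per degree of freedom of 5.41 to 8.34 in pairs that held one of them, against 2.36 and 2.37 in pairs that did not. Without both of them, the 6 calls among the 10 genes in the DU145 comparison held, with log2 fold changes of -0.68 for FN1, -1.14 for CAV1, -1.69 for EFEMP1, -0.42 for CDH2, 0.35 for ZEB1 and -1.13 for TWIST1.

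The stretches just upstream of 4 of the genes are shown. RefSeq (GRCh38.p14) gave 16 promoter windows, from 250 bases before to 50 after a transcript start, for 7 of the 10 genes. EFEMP1, SNAI2 and TWIST1 had none. Of the 7, only FN1, TNC, VIM and ZEB1 had a window reaching well upstream of the gene in the count table. Their response to palbociclib played no part in this choice. Bases are printed 5′ to 3′ on the strand of the gene and only where they lie upstream of the gene in the count table. Capitals mark the cyclic AMP response element TGACGTCA in FN1 and the E-box CAGGTG in ZEB1.
FN1, chr2:215436173-215436318, minus strand: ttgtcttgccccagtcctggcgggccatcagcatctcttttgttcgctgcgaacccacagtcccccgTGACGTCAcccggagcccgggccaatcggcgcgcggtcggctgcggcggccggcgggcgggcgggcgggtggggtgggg
TNC, chr9:115118258-115118407, minus strand: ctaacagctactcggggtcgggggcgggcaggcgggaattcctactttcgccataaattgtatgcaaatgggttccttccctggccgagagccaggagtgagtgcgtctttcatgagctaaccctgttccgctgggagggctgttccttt
VIM, chr10:17227991-17228240, plus strand: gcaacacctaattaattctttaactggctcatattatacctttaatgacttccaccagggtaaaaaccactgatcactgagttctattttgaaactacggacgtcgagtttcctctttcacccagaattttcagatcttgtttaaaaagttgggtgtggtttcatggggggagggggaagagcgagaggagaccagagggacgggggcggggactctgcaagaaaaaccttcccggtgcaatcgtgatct
ZEB1, chr10:31318167-31318416, plus strand: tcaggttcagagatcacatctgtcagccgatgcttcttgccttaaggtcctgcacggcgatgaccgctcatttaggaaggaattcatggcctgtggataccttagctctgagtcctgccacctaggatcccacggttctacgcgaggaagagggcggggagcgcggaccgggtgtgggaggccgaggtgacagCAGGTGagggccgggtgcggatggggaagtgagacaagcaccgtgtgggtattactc

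Both strands of all 35116 RefSeq windows were searched for 4 motifs. The E-box CAGGTG, a sequence that SNAI and ZEB factors bind, was in 20.6% of them and in 2 of the 7 ZEB1 windows. The response element TGACGTCA was in 1.85% of all windows and in the single FN1 window. An AP-1 motif, TGANTCA, was in 7.71% of all windows and in 1 of the 2 CDH2 windows. The E2F motifs TTTGGCGC or TTTCCCGC were in 2.27% of all windows and in none of those of the 7 genes. A match is a description of these letters and not of a bound site, and the windows of CAV1, SPARC, TNC and VIM held none of the 4 motifs.

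The levels of the 10 genes within each line were set out per length, as CPM divided by the gene length in kilobases from the DU145 table (RPKM). FN1 led the libraries labelled C4-2, at 1089 ± 6.64 RPKM with palbociclib and 1206 ± 4.03 RPKM with DMSO (SD, n = 3 and 2), and over all 5 of them it was the eighth highest of 25264 genes with an RPKM above 0. SPARC stood at 377 ± 3.02 RPKM with palbociclib and 344 ± 0.922 RPKM with DMSO, and VIM at 257 ± 7.14 RPKM with palbociclib and 342 ± 11.2 RPKM with DMSO. SPARC was above VIM in every palbociclib library, whereas their ranges overlapped with DMSO. CDH2 and CAV1 came next and changed places with the treatment. CAV1 was at 104 ± 2.60 RPKM with palbociclib, below CDH2 at 119 ± 2.41 RPKM, and at 162 ± 8.44 RPKM with DMSO, above CDH2 at 104 ± 0.962 RPKM. TNC followed at 40.2 ± 0.175 RPKM with palbociclib and 66.9 ± 2.58 RPKM with DMSO. SNAI2 was above EFEMP1 with palbociclib, at 20.6 ± 0.569 and 9.10 ± 0.346 RPKM, and below it with DMSO, at 9.45 ± 0.501 and 15.8 ± 0.198 RPKM. ZEB1 was the lowest detected gene, at 7.95 ± 0.711 RPKM with palbociclib and 7.79 ± 0.127 RPKM with DMSO, and TWIST1 had 0 counts in all 5 libraries.

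The order was another one in the libraries labelled DU145. VIM came first, at 51.0 ± 2.09 RPKM with palbociclib and 57.2 ± 1.31 RPKM with DMSO (SD, n = 3 each), and did not overlap with the next gene in either group. EFEMP1 followed at 15.2 ± 0.737 RPKM with palbociclib and 50.4 ± 1.53 RPKM with DMSO. CAV1 at 11.9 ± 0.818 RPKM overlapped with CDH2 at 11.2 ± 0.824 RPKM with palbociclib, and with DMSO it stood clear of it, at 26.6 ± 2.11 RPKM against 15.0 ± 0.384 RPKM. ZEB1 lay above TWIST1 with palbociclib, at 5.70 ± 0.556 and 2.22 ± 0.369 RPKM, and overlapped with it with DMSO, at 4.39 ± 0.736 and 4.48 ± 0.114 RPKM. FN1 and SNAI2 overlapped with palbociclib, at 1.29 ± 0.0483 and 1.44 ± 0.287 RPKM, and FN1 was the higher with DMSO, at 2.18 ± 0.0602 against 1.92 ± 0.133 RPKM. SPARC and TNC were close to 0, with 0 to 4 counts per library. FN1 was thus the first of the 10 genes in one set of libraries and among the lowest in the other, while TWIST1 was detected in one set and not in the other. The tables were counted separately, so no test was made between lines on these levels.

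**Figure D1:**
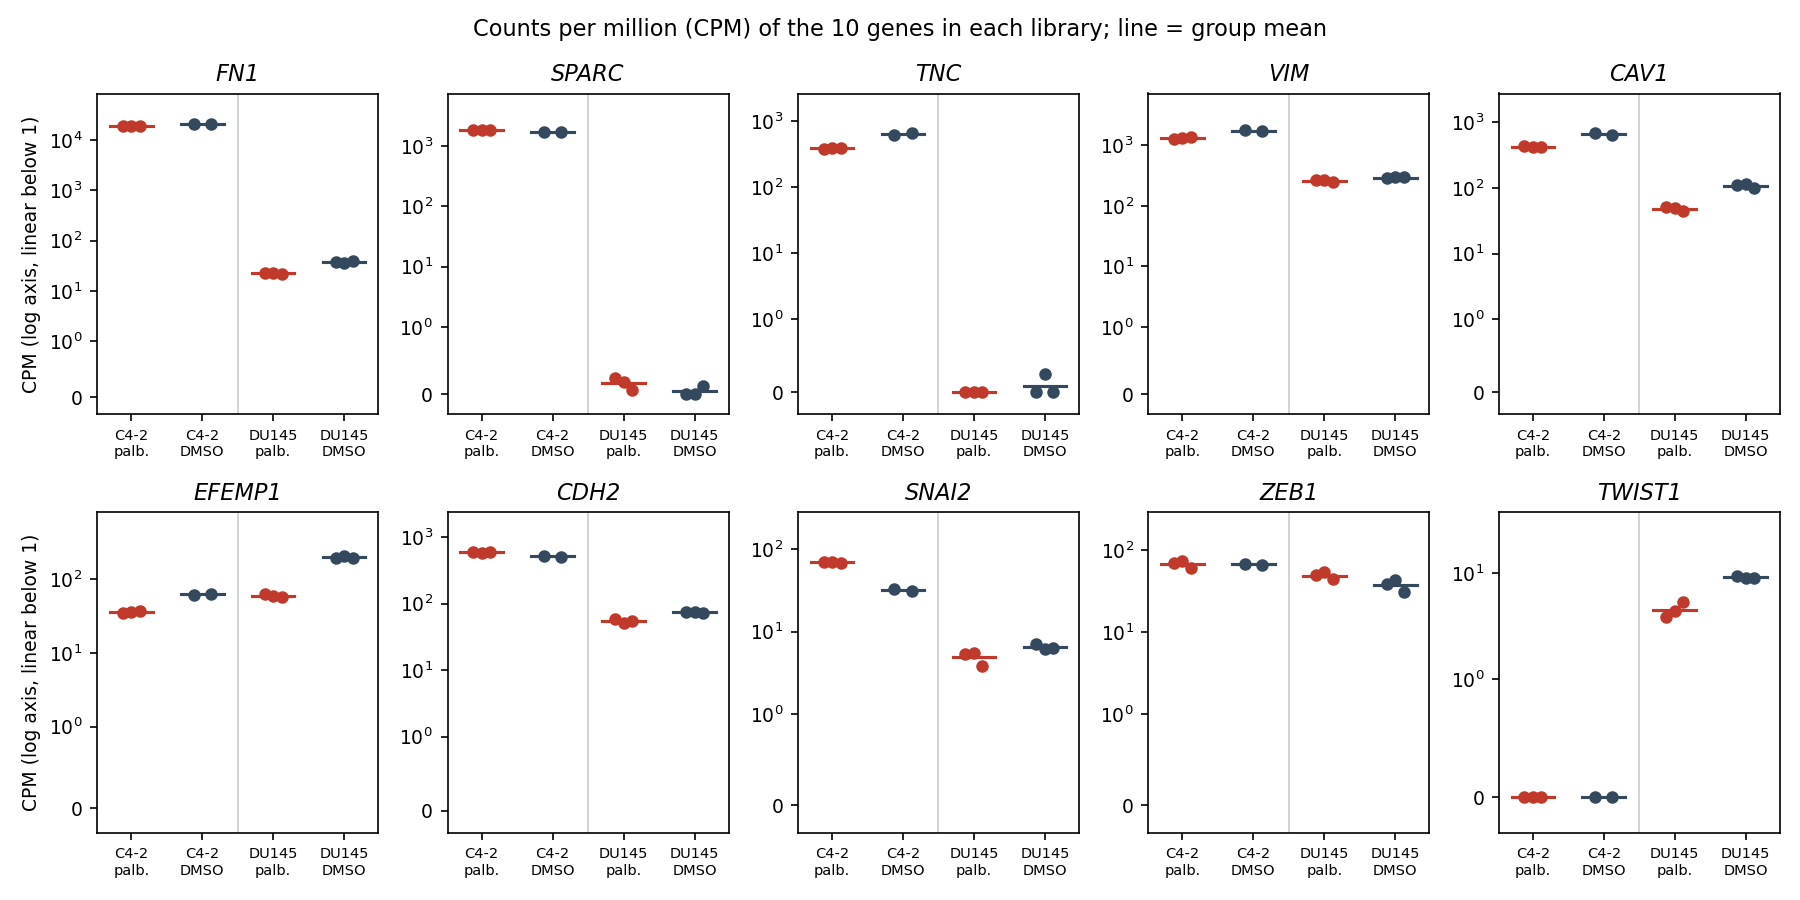
CPM of each of the 10 genes in each library, on a log axis that is linear below 1. Red points are palbociclib libraries and blue points DMSO libraries, horizontal bars are group means, and a grey line separates libraries labelled C4-2 (3 palbociclib, 2 DMSO) from those labelled DU145 (3 of each). FN1, SPARC and TNC lie far higher in the libraries labelled C4-2, and TWIST1 is seen only in those labelled DU145.

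Palbociclib against DMSO was then compared in each line. Of the 10 genes, 9 had enough counts for a test in the libraries labelled C4-2, where 5 fell (FN1, TNC, VIM, CAV1, EFEMP1), 3 rose (SPARC, CDH2, SNAI2) and ZEB1 did not pass (edgeR's quasi-likelihood test, Benjamini-Hochberg adjusted over all genes tested, threshold 0.05). Over the whole table, 51.8% of the 11943 genes tested were called, 25.2% higher and 26.6% lower. Of the 10, 8 had enough counts in the libraries labelled DU145, where 5 fell (FN1, CAV1, EFEMP1, CDH2, TWIST1), ZEB1 rose, and VIM and SNAI2 did not pass. There 58.1% of 15361 genes were called, 28.8% higher and 29.2% lower. The median log2 fold change of the tested genes among the 10 was -0.19 in the libraries labelled C4-2 and -0.57 in those labelled DU145, beside medians over all genes tested of 0.0016 and -0.0074. Palbociclib and DMSO groups did not overlap in CPM for 8 of the tested genes among the 10 in each line, beside 66.1% of all genes tested in the libraries labelled C4-2 and 62.7% in those labelled DU145. With shares this high over all genes, these counts describe the 10 genes and do not set them apart.

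**Figure D2:**
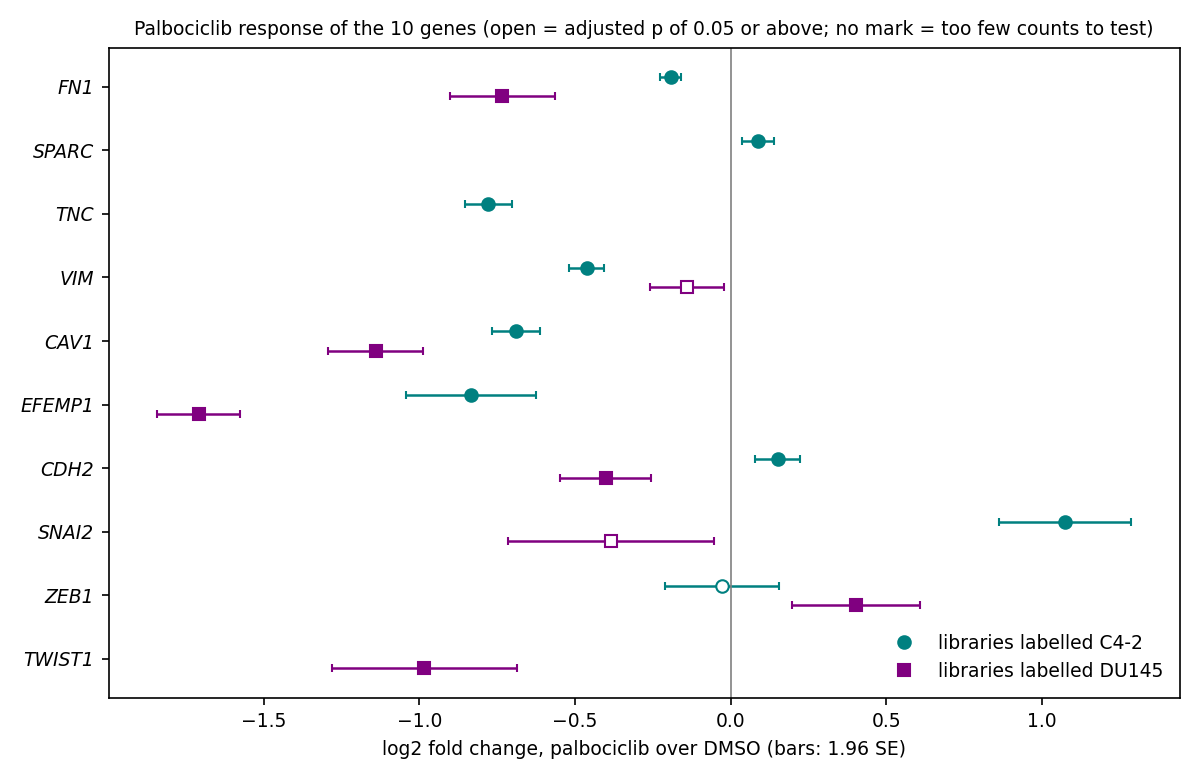
Response to palbociclib of each of the 10 genes, as log2 fold change over DMSO. Circles are libraries labelled C4-2 and squares those labelled DU145, bars span 1.96 SE on each side, open symbols did not pass an adjusted p of 0.05, and genes with too few counts have no symbol. FN1, CAV1 and EFEMP1 fell in both lines, more in the libraries labelled DU145, and CDH2 lies on opposite sides of 0.

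Among the matrix glycoproteins, fibronectin fell in both lines. FN1 (chr2:215360440-215436172, minus strand) encodes the fibrillar glycoprotein that integrins bind. It had 18838, 18757 and 18983 CPM in the C4-2 palbociclib libraries, against 20828 and 20926 CPM in the C4-2 DMSO libraries. All 3 palbociclib libraries lay below both DMSO libraries, and the distance was small beside the level. The log2 fold change was -0.19 (SE 0.018, edgeR adjusted p = 1.58e-12), a change of -12.5%, and FN1 took 1.89% of all counts with palbociclib and 2.09% with DMSO. With library totals, the scale of the CPM, in place of TMM scaling, the log2 fold change was smaller in size, at -0.15. FN1 was far lower in the libraries labelled DU145, with 22.6, 23.1 and 21.5 CPM with palbociclib, against 38, 36.7 and 38.8 CPM with DMSO. The groups were well separated, with a log2 fold change of -0.73 (SE 0.085, edgeR adjusted p = 1.08e-06). These are bulk libraries, in which fewer cells that express a gene and less RNA per cell cannot be told apart.

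TNC (chr9:115019578-115118257, minus strand) encodes tenascin C, a large glycoprotein of remodelling and tumour matrix. It had 386, 389 and 388 CPM in the C4-2 palbociclib libraries, against 627 and 662 CPM in the C4-2 DMSO libraries. The palbociclib libraries were nearly alike and lay clearly below both DMSO libraries, at a log2 fold change of -0.78 (SE 0.039, edgeR adjusted p = 4.91e-21). Libraries labelled DU145 held 0 counts of it in all 3 palbociclib libraries, and 0, 4 and 0 counts in the DMSO libraries, so it was not tested there.

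SPARC (chr5:151661096-151687165, minus strand) encodes osteonectin, a collagen-binding matricellular protein. It had 1831, 1833 and 1807 CPM in the C4-2 palbociclib libraries, against 1658 and 1665 CPM in the C4-2 DMSO libraries. It thus stood higher in every palbociclib library, while FN1 and TNC stood lower. The log2 fold change was 0.087 (SE 0.026, edgeR adjusted p = 0.00451), the smallest among the called genes of the 10. It was 0.13 with library totals in place of TMM scaling, and with no filter on low counts it did not pass (0.07, edgeR adjusted p = 0.0635). Libraries labelled DU145 held 4, 3 and 1 counts with palbociclib and 0, 0 and 2 counts with DMSO, too few for a test.

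EFEMP1 (chr2:55865967-55924139, minus strand) encodes fibulin 3, a glycoprotein of elastic and basement membrane matrix. It had 63.1, 59.7 and 57.3 CPM in the libraries labelled DU145 with palbociclib, against 198, 206 and 194 CPM with DMSO. Each palbociclib library lay far below every DMSO library, and the log2 fold change of -1.71 (SE 0.067, edgeR adjusted p = 3.53e-12), a change of -69.4%, was the greatest in size among the 10 genes in either line. The C4-2 palbociclib libraries had 35.0, 35.6 and 37.6 CPM, against 61.9 and 63.0 CPM in the C4-2 DMSO libraries. Those groups did not overlap either, at a log2 fold change of -0.83 (SE 0.11, edgeR adjusted p = 9.39e-09).

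The genes of the cytoskeleton and membrane differed among themselves. VIM (chr10:17228259-17237593, plus strand) encodes vimentin, the intermediate filament of mesenchymal cells. It had 1290, 1319 and 1363 CPM in the C4-2 palbociclib libraries, against 1807 and 1726 CPM in the C4-2 DMSO libraries. The groups were separated by more than the spread within either, at a log2 fold change of -0.46 (SE 0.029, edgeR adjusted p = 8.85e-18). Libraries labelled DU145 had 273, 264 and 252 CPM with palbociclib, against 287, 297 and 300.2 CPM with DMSO. All palbociclib libraries lay below all DMSO libraries, yet the log2 fold change of -0.14 (95% interval -0.26 to -0.02) missed the threshold (edgeR adjusted p = 0.0582). It passed with library totals (edgeR adjusted p = 0.0249), with no filter (0.0462) and with a stricter filter (0.0472), so the call depends on the setting. The antisense gene VIM-AS1 overlaps VIM and had 13 to 28 counts in libraries labelled DU145 and 3 to 11 in those labelled C4-2, few beside the counts of VIM.

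CAV1 (chr7:116524785-116561184, plus strand) encodes caveolin 1, the coat protein of caveolae. It had 435, 422 and 414 CPM in the C4-2 palbociclib libraries, against 684 and 635 CPM in the C4-2 DMSO libraries, a log2 fold change of -0.69 (SE 0.039, edgeR adjusted p = 6.48e-19). Libraries labelled DU145 had 50.5, 50.3 and 44.6 CPM with palbociclib, against 111, 116 and 99.2 CPM with DMSO. CAV1 was lower in every palbociclib library of both lines. Its log2 fold change in the libraries labelled DU145 was -1.14 (SE 0.078, edgeR adjusted p = 1.42e-09), a change of -54.6%.

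CDH2 (chr18:27950966-28177446, minus strand) encodes N-cadherin, the adhesion molecule of mesenchymal and neural cells. It had 595, 576 and 599 CPM in the C4-2 palbociclib libraries, against 518 and 512 CPM in the C4-2 DMSO libraries, and rose by a log2 fold change of 0.15 (SE 0.037, edgeR adjusted p = 0.000745). The level in libraries labelled DU145 was 59.5, 51.4 and 55.0 CPM with palbociclib, against 75.0, 75.7 and 72.1 CPM with DMSO. There it fell, with a log2 fold change of -0.40 (SE 0.075, edgeR adjusted p = 0.00018). The groups did not overlap in either line, so CDH2 passed the test in opposite directions.

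The transcription factors did not move as one. SNAI2 (chr8:48917604-48921740, minus strand) encodes SLUG, a repressor of CDH1. It had 70.9, 71.3 and 67.8 CPM in the C4-2 palbociclib libraries, against 33.2 and 30.8 CPM in the C4-2 DMSO libraries. The level was 2.10-fold higher with palbociclib (log2 fold change 1.07, SE 0.11, edgeR adjusted p = 2.81e-11), the only one of the 10 genes with a rise of that size. It was low in the libraries labelled DU145, at 5.31, 5.58 and 3.78 CPM with palbociclib, against 7.01, 6.19 and 6.28 CPM with DMSO. The groups did not overlap, and the log2 fold change of -0.39 (95% interval -0.72 to -0.05) missed the threshold (edgeR adjusted p = 0.0593). It passed with library totals (edgeR adjusted p = 0.0471) and without palbociclib replicate 2 (0.0434).

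ZEB1 (chr10:31318495-31529814, plus strand) encodes a zinc finger repressor of epithelial genes. It had 70.9, 73.6 and 61.9 CPM in the C4-2 palbociclib libraries, against 68.2 and 66.7 CPM in the C4-2 DMSO libraries. The groups overlapped, and the log2 fold change was -0.03 (95% interval -0.21 to 0.15, edgeR adjusted p = 0.823). The level in libraries labelled DU145 was 49.5, 54.0 and 44.4 CPM with palbociclib, against 38.6, 44.0 and 31.3 CPM with DMSO. The lowest palbociclib library and the highest DMSO library nearly met, and the log2 fold change was 0.40 (SE 0.10, edgeR adjusted p = 0.0031). The antisense gene ZEB1-AS1 overlaps ZEB1 and had 151 to 209 counts per library labelled DU145, against 513 to 890 counts of ZEB1 itself, and the sources used here do not give the strand setting of that table.

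TWIST1 (chr7:19020991-19117672, minus strand) encodes a basic helix-loop-helix factor of mesoderm. It had 3.86, 4.37 and 5.34 CPM in the DU145 palbociclib libraries, against 9.37, 8.98 and 8.96 CPM in the DU145 DMSO libraries. These are 64, 72 and 89 counts with palbociclib against 151, 145 and 147 with DMSO, and the log2 fold change was -0.98 (SE 0.15, edgeR adjusted p = 2.49e-05). Among the factors, 1 fell, 1 rose and 1 did not pass in the libraries labelled DU145.

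**Figure D3:**
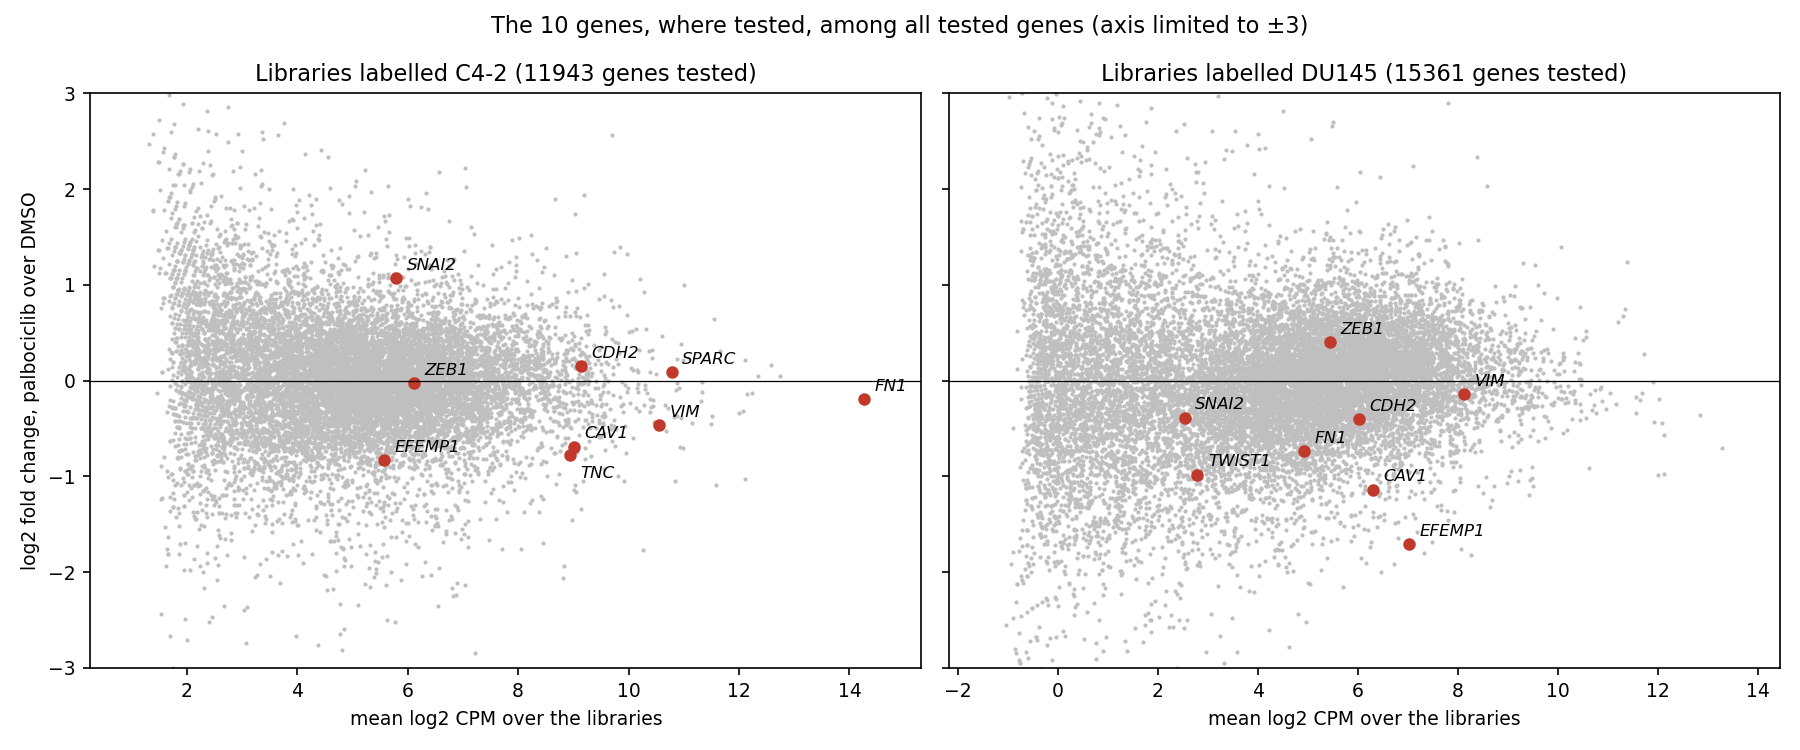
Log2 fold change of palbociclib over DMSO against mean log2 CPM for every tested gene (grey) and for the tested genes among the 10 (red), with libraries labelled C4-2 on the left and DU145 on the right. The vertical axis is limited to 3 on each side, which leaves out 21 and 93 genes of the left and right panel. FN1 is the farthest point to the right in the C4-2 panel, and EFEMP1 (-1.71) and CAV1 (-1.14) are the lowest red points in the DU145 panel.

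Whether the response differed between lines was tested directly, in 1 fit over both tables, as the log2 fold change in DU145 less that in C4-2. Of the 10 genes, 5 had a lower value in the libraries labelled DU145 and 2 a higher one, beside 33.4% of the 18139 genes tested (15.0% lower and 18.4% higher). The difference was -1.43 for SNAI2 (SE 0.20, edgeR adjusted p = 1.03e-06), which rose in one line and had the opposite sign in the other. CDH2, called in opposite directions, had a difference of -0.52 (SE 0.091, edgeR adjusted p = 2.85e-05). FN1 (-0.51, SE 0.066, edgeR adjusted p = 2.63e-07), CAV1 (-0.42, SE 0.097, edgeR adjusted p = 0.000828) and EFEMP1 (-0.84, SE 0.13, edgeR adjusted p = 3.39e-06) fell in both lines, and more in the libraries labelled DU145.

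VIM had the opposite sign, with a difference of 0.36 (SE 0.075, edgeR adjusted p = 0.000323), its log2 fold changes being -0.46 in the libraries labelled C4-2 and -0.14 in those labelled DU145. ZEB1 had a difference of 0.46 (SE 0.16, edgeR adjusted p = 0.0265), which lost its call under 7 of the alternatives, library totals (0.35, edgeR adjusted p = 0.101) among them. TNC, SPARC and TWIST1 were at or near 0 in one line, so their difference cannot be read. The RB1 state of the lines is background from their names, and the luminal markers leave the label C4-2 in doubt. Even with the labels as given there was 1 line per RB1 state, so line and RB1 state cannot be told apart.

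Genes of the same pathways were counted from 7 further lists. Over all genes tested, 25.2% were called higher and 26.6% lower in the libraries labelled C4-2. The shares were 28.8% and 29.2% in those labelled DU145, and 18.4% and 15.0% in the test between lines. Several list counts lie near these shares. The counts describe the lists, and no list was tested as a set. Of 33 other matrix glycoproteins tested in the libraries labelled DU145, 21 fell and 1 rose. Their median log2 fold change was -0.54, beside -0.0074 over all genes tested. HSPG2, perlecan of the basement membrane, averaged 134 ± 14.8 CPM with palbociclib and 482 ± 49.7 CPM with DMSO (SD, n = 3 each; log2 fold change -1.83). The fibrillin gene FBN2 averaged 222 ± 11.8 CPM with palbociclib and 508 ± 15.9 CPM with DMSO, a log2 fold change of -1.17. Its relative FBN1 (-1.41) and LTBP1, which binds latent TGF-beta (-0.79), fell as well. The same list was mixed in the libraries labelled C4-2, with 12 of 31 tested genes higher, 9 lower and a median of 0.02, beside 0.0016 over all genes tested. THBS1, thrombospondin 1, averaged 643 ± 27.9 CPM with palbociclib and 2114 ± 3.04 CPM with DMSO (SD, n = 3 and 2; log2 fold change -1.77), and the laminin chain gene LAMB1 also fell (-0.49). SPP1, osteopontin (0.68), and the laminin chain gene LAMB2 (0.83) rose. In the test between lines, 16 of 40 of these genes had a lower and 3 a higher value in the libraries labelled DU145. These 40 include genes with too few counts for a test in 1 or both lines, some of them called. The difference of such genes cannot be read, as for TNC, SPARC and TWIST1.

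Of 22 matrix remodelling enzymes and inhibitors tested in the libraries labelled C4-2, 12 rose and 8 fell, and the median log2 fold change was 0.27. PLOD2, the lysyl hydroxylase of collagen telopeptides, averaged 1538 ± 4.30 CPM with palbociclib and 786 ± 16.0 CPM with DMSO (SD, n = 3 and 2; log2 fold change 0.92), and the crosslinking enzyme LOXL2 (0.65) and the metalloproteinase inhibitor TIMP2 (0.63) rose too. The libraries labelled DU145 showed 3 higher and 13 lower of 22 tested, with a median of -0.33. The transglutaminase TGM2 (-1.12), the aggrecanase ADAMTS5 (-1.51) and the prolyl hydroxylase P4HA2 (-0.61) fell, and the metalloproteinase inhibitor TIMP1 rose (0.58). Between lines, 12 of 26 had a lower and 4 a higher value in those labelled DU145. The 26 also include genes with too few counts for a test in 1 or both lines.

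Receptors for the matrix split in the libraries labelled C4-2, with 5 of 16 higher, 6 lower and a median of 0.03. Among integrin chains of fibronectin and vitronectin receptors, ITGAV (0.52) and ITGB1 (0.23) rose and ITGB3 (-0.44) fell, and the syndecan SDC1 fell too (-0.91). Of 15 receptors tested in the libraries labelled DU145, 2 rose and 8 fell (median -0.22), and those that fell included the syndecans SDC2 (-1.05) and SDC1 (-0.55), the integrin chain ITGB5 (-0.98) and the collagen receptor DDR2 (-1.92). Of the caveola genes besides CAV1, 3 of 7 fell and 1 rose in the libraries labelled C4-2, where the caveola coat gene CAVIN1 had a log2 fold change of -0.44. Of 8 tested in those labelled DU145, 2 fell and 3 rose. CAV2, the partner of CAV1, fell there (-1.09), CAVIN1 rose (0.32), and CAVIN4, a cavin known from muscle, rose to 13.6 ± 1.12 CPM with palbociclib, against 0.740 ± 0.165 CPM with DMSO (SD, n = 3 each).

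Of the other transcription factors of the epithelial-mesenchymal transition, 5 of 12 rose and 3 fell in the libraries labelled C4-2. SOX4 averaged 617 ± 7.91 CPM with palbociclib and 242 ± 0.460 CPM with DMSO (SD, n = 3 and 2; log2 fold change 1.30), and ZEB2, the relative of ZEB1, also rose (0.56), whereas TWIST2, the relative of TWIST1, fell (-0.42), as did TCF3 (-0.63). Among 11 such factors in the libraries labelled DU145, 2 rose and 6 fell, with medians of -0.25 there and 0.19 in the libraries labelled C4-2. SNAI1, the relative of SNAI2, rose with palbociclib in the libraries labelled DU145 (0.76), and SOX4 (-0.46), FOXC1 (-0.34) and TCF3 (-0.25) fell. SOX4 thus passed in opposite directions in the lines, as CDH2 did.

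Of 13 other mesenchymal markers tested in each line, 7 fell in each. The median was -0.39 and 2 rose in the libraries labelled C4-2, and the median was -0.29 and 1 rose in those labelled DU145. The cadherin CDH6 (-2.14), smooth muscle actin ACTA2 (-2.05), the galectin LGALS1 (-0.50) and moesin MSN (-0.39) fell in the libraries labelled C4-2. The receptor kinases AXL (-1.06) and PDGFRB (-0.59) and the adhesion molecules CDH13 (-0.89) and L1CAM (-0.31) fell in those labelled DU145. Of 10 epithelial genes tested in the libraries labelled C4-2, 6 fell and 2 rose (median -0.82), with the keratins KRT8 (-1.34), KRT18 (-1.42) and KRT19 (-1.56) lower and the tight junction gene CLDN1 higher (0.81). Of 21 epithelial genes tested in those labelled DU145, 11 fell and 5 rose (median -0.46), with the plakophilin PKP3 (-1.64), the claudin CLDN7 (-1.70) and the matriptase gene ST14 (-1.52) lower and AP1M2, an epithelial sorting adaptor, higher (1.04). Each gene named from these 7 lists passed an edgeR adjusted p of 0.05 over all genes tested. CDH1 was low, with 1 to 2 counts in C4-2 palbociclib libraries and 1 in each C4-2 DMSO library, and with 13 to 26 counts in DU145 palbociclib libraries and 26 to 35 in DU145 DMSO libraries. It fell in the libraries labelled DU145 (log2 fold change -0.87, edgeR adjusted p = 0.0306) and was not tested in those labelled C4-2.

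**Figure D4:**
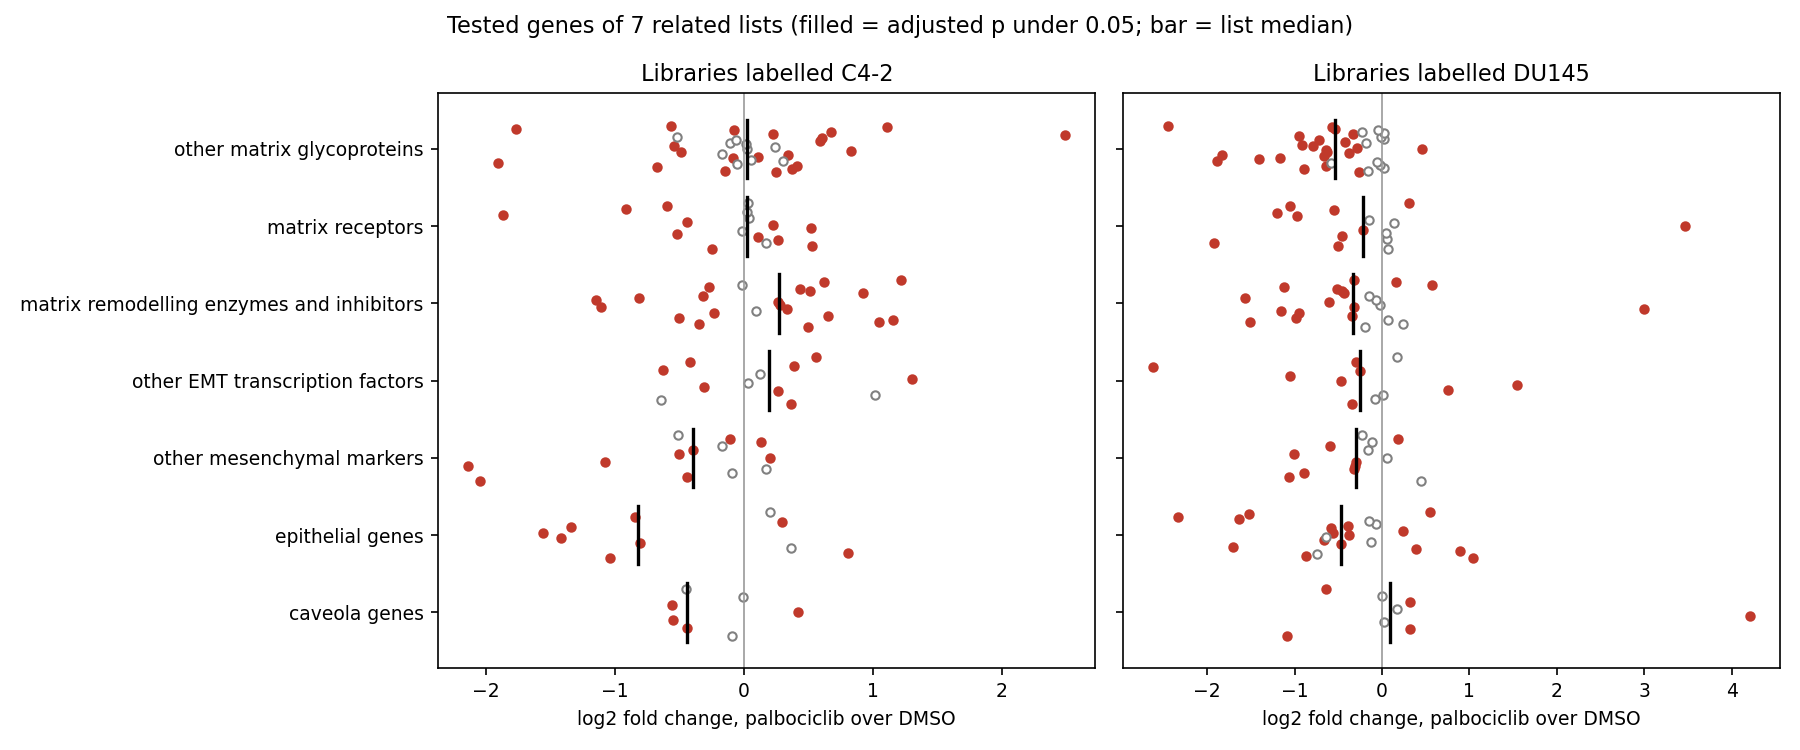
Log2 fold change of palbociclib over DMSO for the tested genes of 7 related lists, with libraries labelled C4-2 on the left and DU145 on the right. Filled points passed an adjusted p of 0.05, open points did not, and vertical bars are list medians. The bar for other matrix glycoproteins sits at 0.02 on the left and at -0.54 on the right, and the bars for mesenchymal markers and epithelial genes lie below 0 in both panels.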

How the data were processed

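Per the file headers, the authors made the deposited C4-2 counts, raw reads per gene, with featureCounts 2.0.1 on paired reads and the Ensembl 107 annotation, without strand. How the deposited DU145 counts were aligned and counted, strand included, is not given in the sources used here. Build hg38 is named in the submitters' processing notes. Because the library kit is directional and the C4-2 counting did not use strand, antisense reads are included there. All columns were mapped to samples by their labels, and the empty C4-2 library was left out.

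From these counts, edgeR 4.0.16 (R 4.3.3) was run on each line with filterByExpr, TMM scaling and the quasi-likelihood test, adjusted by Benjamini-Hochberg over all genes tested. A joint fit of the 56747 shared genes tested the difference between lines. Each SE is the size of the log2 fold change divided by the square root of the F statistic of its test. The 95% intervals span 1.96 SE on each side, a normal multiple that makes no allowance for the few libraries and can be too narrow. CPM used library totals, and RPKM also the gene length in the DU145 table. Scripts were tested on simulated data with a set spread, not one taken from these libraries. True log2 changes of 0.5 were called in 20.7% of cases for C4-2, 44.7% for DU145 and 2.86% between lines. For changes of 1 the shares were 76.4%, 95.3% and 52.6%. The 10 genes and the lists were chosen with earlier results of these data known. All 10 are named, with up to 4 called genes per related list and line by smallest adjusted p at a mean of at least 5 CPM. 1 gene that this rule gave is not reported here. CDH1 was added after its values were seen. Markers could be named among the 3 highest levels or at 0 counts. Alternatives were other scalings, filters, DESeq2 1.42.0, a replicate block and leaving out each library. DESeq2 on the joint fit and leaving out both DU145 libraries numbered 3 from it were added after seeing the data.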

Additional observations from a re-analysis of the deposited data

Results flagged for a closer look

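The palbociclib response differed between the lines for 7 of the 10 genes by the interaction test in edgeR's quasi-likelihood fit (Benjamini-Hochberg adjusted p of 1.03e-06 to 0.0265 over 18139 genes, 33.4% of which were called). The log2 fold change in DU145 less that in C4-2 was -1.43 for SNAI2, -0.84 for EFEMP1, -0.52 for CDH2, -0.51 for FN1, -0.42 for CAV1, 0.36 for VIM and 0.46 for ZEB1. The difference of ZEB1 lost its call under 7 of the alternatives. The libraries of the lines also differ in depth and in counting, and the part of either in these differences was not tested.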

How the results depend on the processing

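The counts of called genes over all genes stayed within 1.5 times of their values, except in the libraries labelled C4-2 under DESeq2, which called 3793 genes against 6184, and the cause was not tested. With 1 library left out at a time they ran from 5035 to 5751 in the libraries labelled C4-2, from 8111 to 9054 in those labelled DU145 and from 4743 to 6248 for the difference between lines, and the called among the 10 genes were 8, 6 to 7 and 6 to 7. Leaving out both DU145 libraries numbered 3 gave 9343 and 6605 calls.

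The log2 fold change of ZEB1 in the libraries labelled C4-2, which never passed, changed sign to 0.018 with library totals and 0.051 with the replicate block. With 1 library left out at a time it ran from -0.072 to 0.055, the highest without palbociclib replicate 3. SPARC in the libraries labelled C4-2 did not pass with no filter (0.07). VIM and SNAI2 in those labelled DU145 passed under 4 and 3 alternatives. The difference of ZEB1 between lines did not pass with library totals (0.35), under DESeq2 (0.41) or without C4-2 palbociclib replicate 3 (0.39), C4-2 DMSO replicate 1 (0.44) or 2 (0.49), DU145 palbociclib replicate 2 (0.39) or DU145 DMSO replicate 3 (0.33). All other fold changes of the 10 genes kept their direction and side of the threshold under the alternatives run. Library totals moved the median of all genes in the test between lines to -0.12, against -0.02, and turned the balance of its calls to 2761 higher and 3290 lower, against 3337 higher and 2728 lower. They also moved 2 of 42 list counts by over 1.5 times, and TMM-scaled CPM moved 8 of 40 mean levels by more than their SD.

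The replicate numbers did not pair the libraries throughout. Same-numbered palbociclib and DMSO libraries correlated at 0.007 and 0.029 in the C4-2 table and at 0.02, 0.036 and 0.128 in the DU145 table. DU145 palbociclib replicate 1 correlated best with DMSO replicate 2. DU145 palbociclib replicate 3 correlated at 0.128 with DMSO replicate 3, but at -0.05 and -0.087 with DMSO replicates 1 and 2. What the libraries numbered 3 share was not tested. With the replicate block the calls were 5698, 9953 and 6041, and VIM (-0.14, edgeR adjusted p = 0.00353) and SNAI2 (-0.39, edgeR adjusted p = 0.0357) passed in the libraries labelled DU145. No fold change could be measured for SPARC and TNC in the DU145 table, the deeper one, or for TWIST1 in the C4-2 table, because they had 0 to 4 counts per library.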
